A study of Homo sapiens with 6 samples.

Results

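The 10 genes described here encode secreted cytokines and growth factors other than chemokines: LIF, CSF1, IL1B, IL1RN, IL15, IL18, OSM, TGFA, VEGFA and GDF15. They were chosen by name, as secretory factors linked to senescence and to marrow signalling, with earlier results of these data known. All 10 were found among the 30735 genes of the deposited table. RNA came from SET-2, an established human megakaryoblastic leukaemia cell line with a mutant JAK2 that serves as a model of myeloproliferative neoplasms. There were 6 libraries in 2 groups, 3 of cells given placebo, called control here, and 3 of cells given CPL. The labels did not say what CPL is, at which dose or for how long it was given, or whether replicates were separate cultures. The p-values therefore refer to the spread among these 6 samples, part of which may be technical.

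Senescent cells release a mixture of cytokines, growth factors and proteases, known as the senescence-associated secretory phenotype, and much of it is driven by NF-κB, the second subject named in the title of the series. In the marrow such factors act on neighbouring cells as well as on the cells that make them. Cytokines of the interleukin-6 family, such as LIF and oncostatin M, signal through the shared receptor subunit gp130 to JAK kinases and STAT3. Interleukin-1β and interleukin-18 are made as inactive precursors that caspase-1 cleaves in the inflammasome, and the receptor antagonist encoded by IL1RN occupies the interleukin-1 receptor without activating it. An mRNA level does not measure cleavage or secretion of the protein.

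CPL-treated cells had 7.71-fold more LIF mRNA and 2.01-fold more CSF1 mRNA than control cells, as ratios of mean FPKM (n = 3 libraries each). IL1B had the highest FPKM of the 10 genes in both groups, while its antagonist gene IL1RN was covered by 1 read in 1 library. IL18, VEGFA, IL1B and GDF15 did not pass the test, and OSM, IL15, TGFA and IL1RN stayed under the expression filter. Among genes of the same pathways, CASP1, which encodes caspase-1, fell, and BMP6, JUN and FOSL2 rose. All of them no longer passed without any 1 control or without CPL replicate 2. None passed with the replicate number as a block or without the filter.

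The deposited values were FPKM, which scale reads to gene length and library size. The length was that of all annotated exons of a gene merged, so levels compare only roughly between genes. A gene whose expressed transcript is shorter than that reads too low. The library totals that the FPKM values imply ranged from 14647880 to 18239468 reads. A count of 3 on 1 kilobase of exon equalled 0.164 to 0.205 FPKM, a floor that covers counting error only. CPL replicate 1 stood apart: across 13074 tested genes, its deviation from the mean of all 6 libraries followed the GC content of the genes with a rank correlation of 0.736, against −0.51 to −0.00493 in the other 5. Each result is therefore also given after removal of that trend from every library, where this changed a call. Of 13 megakaryocyte markers, 11 were in the table, PF4 and GP1BB being absent. A mean of at least 1 FPKM was reached by 10 of the 11, among them ITGA2B at 149.9 to 226.9 FPKM. VWF, at 0.037 FPKM at most, was the exception. Their summed level was 358 to 405 FPKM in control and 365 to 545 in CPL, and 1 of 10 tested, SELP, rose (adjusted p = 0.0334, or up to 0.156 without any 1 library other than CPL replicate 1). Removing the trend gave 4 higher markers, SELP, GP9, GP6 and TUBB1, and voom gave 2. Of 10 monocyte and macrophage markers, 8 were in the table, CD163 and MARCO being absent, and LYZ and ITGAM alone reached 1 FPKM. LYZ averaged 44.1 FPKM in control and 42.2 in CPL, and ITGAM 14.8 and 9.89. CSF1R, CD14, CD68, MRC1, FCGR1A and VCAN were at 0.784 FPKM or less in every library. The summed level of the 8 was 57.0 to 61.9 FPKM in control and 51.8 to 54.0 in CPL, with ITGAM lower once the trend was removed (adjusted p = 0.0653 as deposited, then 0.00179). Markers of other lineages with a mean of at least 1 FPKM were CD79A, NKG7 and GNLY (lymphocyte) and CDH5 and PECAM1 (endothelial), and none of them passed in limma. The part of the marker differences in the results below was not tested, and in bulk RNA fewer cells with a transcript and less transcript per cell cannot be told apart.

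The test was limma on log2(FPKM + 1) with Benjamini-Hochberg adjustment over the 13092 genes that had at least 1 FPKM in at least 3 libraries. At an adjusted p under 0.05, 1.09% of them were higher and 0.665% lower in CPL. Of the 10 members, 6 entered the test, and 2 of these, LIF and CSF1, were higher and none lower, with 4 higher and 1 lower at an unadjusted p under 0.05, where 9.54% of all tested genes were higher and 10% lower. LIF and GDF15 entered it through their CPL libraries alone, since all 3 of their controls were under 1 FPKM, so the members' share of calls is not read against the background. After removal of the GC trend, 6.97% of genes were higher and 6.29% lower, and of the 6 members LIF, CSF1 and VEGFA were higher and none lower. With limma's voom on the recovered reads, 2.45% of genes were higher and 1.47% lower, and LIF and CSF1 were again the members called.

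**Figure D1:**
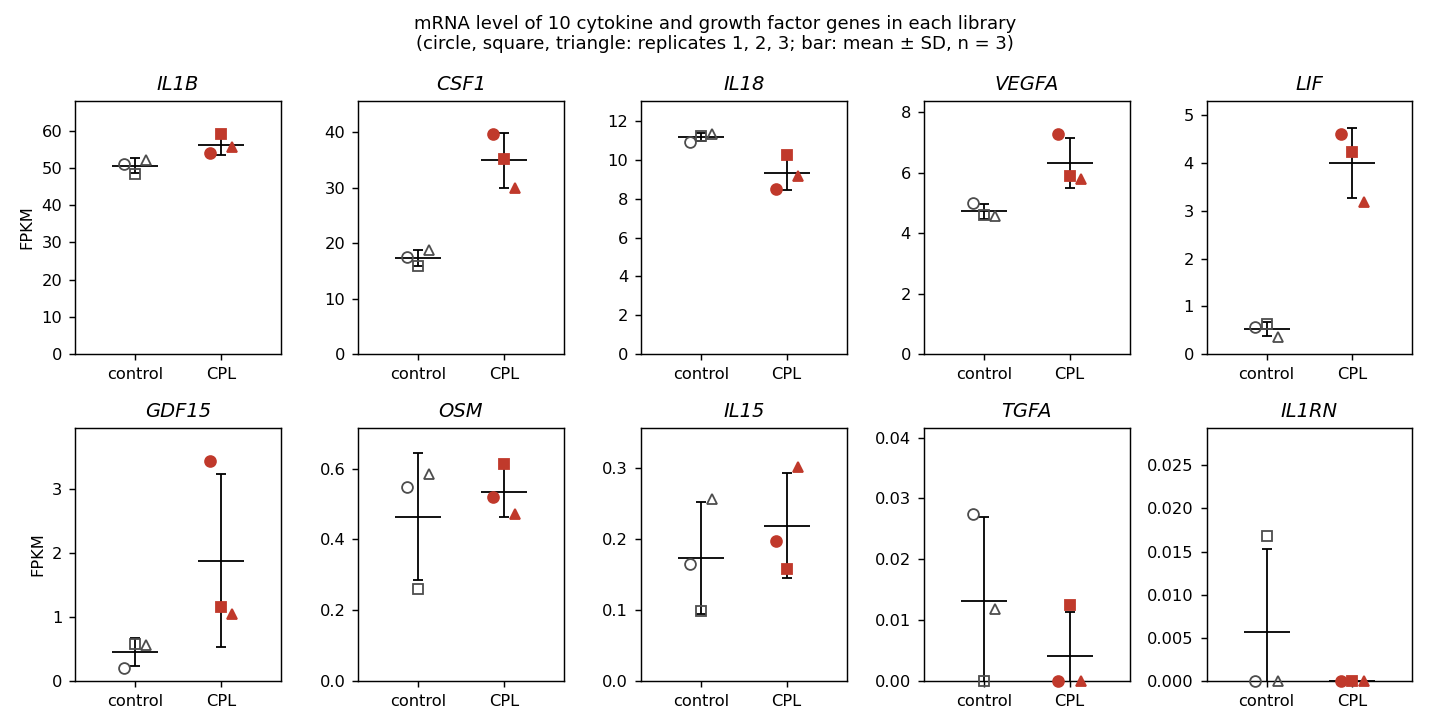
FPKM (linear axes from 0, a separate scale for each gene) of the 10 members in the 3 control and 3 CPL libraries, with circle, square and triangle for replicates 1, 2 and 3 and a bar for the mean ± SD. LIF lies at 0.357 to 0.635 FPKM in control and 3.18 to 4.61 in CPL, and the highest GDF15 value, 3.44 FPKM, is CPL replicate 1.

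LIF, leukaemia inhibitory factor (ENSG00000128342, chromosome 22, 30240447 to 30246851, minus strand, GRCh38), is a cytokine of the interleukin-6 family first known for its effect on myeloid leukaemia cells. It was at 0.568, 0.635 and 0.357 FPKM in control replicates 1, 2 and 3 and at 4.61, 4.24 and 3.18 FPKM in CPL replicates 1, 2 and 3. Every CPL library was at least 5.01-fold above the highest control in FPKM. With all controls under 1 FPKM, LIF could pass the filter only if the groups did not overlap. These values rested on 24 to 46 reads in the controls and 203 to 283 in the CPL libraries. The log2 change was 1.71 ± 0.16 (SE; 95% interval 1.34 to 2.08; limma adjusted p = 0.00592), and on the read scale of voom, which adds no pseudocount of 1 FPKM, it was 2.95. LIF passed whichever single library was left out, with adjusted p from 0.00672 to 0.0496. An antisense transcript, AC004264.1, overlaps LIF on the opposite strand and averaged 0.281 FPKM in control and 0.504 in CPL. Whether the kit kept strand is not stated, so reads of LIF and of its antisense partner cannot be told apart.

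OSM, which encodes oncostatin M, the gp130 cytokine closest to LIF, lies 15977 bases from LIF on the same strand of chromosome 22 (30262829 to 30266840). It was at 0.549, 0.259 and 0.586 FPKM in control and at 0.519, 0.614 and 0.471 FPKM in CPL. The groups overlapped, and with 10 to 21 reads per library OSM stayed under the filter. Its difference of 0.07 on the log2 scale had an exact permutation p of 0.8 (two-sided, 3 against 3, where the smallest possible p is 0.1), and its 95% interval in limma without a filter was −0.26 to 0.40. In control cells the LIF and OSM levels were within each other's spread, at 0.520 ± 0.145 and 0.465 ± 0.179 FPKM (SD, n = 3), and in CPL they were 4.01 ± 0.74 and 0.535 ± 0.073 FPKM.

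CSF1 (ENSG00000184371, chromosome 1, 109910242 to 109930992) encodes macrophage colony-stimulating factor, which sustains monocytes and macrophages through the receptor CSF1R. It was at 17.5, 15.9 and 18.7 FPKM in control and at 39.7, 35.2 and 29.9 FPKM in CPL, from 1392 to 1718 and 2604 to 3333 reads. The lowest CPL library stood 11.2 FPKM above the highest control, and 14.1% of tested genes had all CPL libraries above all controls. The log2 change was 0.96 ± 0.13 (SE; 95% interval 0.66 to 1.26; limma adjusted p = 0.0190). CSF1 no longer passed without control replicate 1 (adjusted p = 0.116), control replicate 2 (0.109), control replicate 3 (0.0987) or CPL replicate 2 (0.0961), while its log2 change stayed between 0.87 and 1.07. With the GC trend taken out the change was 0.80 (adjusted p = 0.00188), and it passed without any 1 library, with adjusted p of at most 0.0115. The CSF1 call was also lost without a filter on low values (adjusted p = 0.0893).

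**Figure D2:**
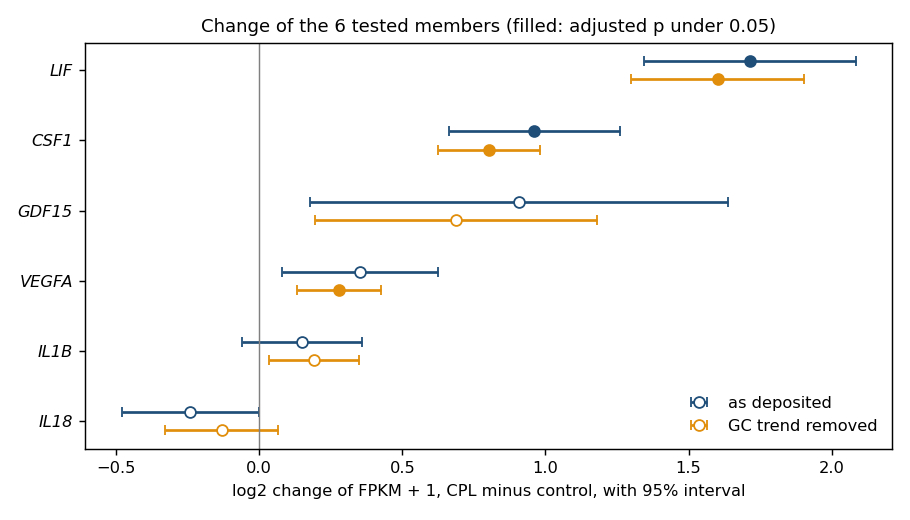
Log2 change of FPKM + 1, CPL minus control, with its 95% interval from limma for the 6 tested members, as deposited (blue) and with the GC trend removed (orange), filled where the adjusted p was under 0.05. LIF (1.71 and 1.60) and CSF1 (0.96 and 0.80) are filled in both, and VEGFA (0.35 and 0.28) after removal of the trend.

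The interleukin-1 family was represented by 3 members. IL1B (ENSG00000125538, chromosome 2, 112829751 to 112836903), which encodes the fever-inducing cytokine interleukin-1β, was at 51.2, 48.5 and 52.2 FPKM in control and at 53.9, 59.1 and 55.6 FPKM in CPL. All 3 CPL libraries lay above all controls, by 1.72 FPKM at the closest, as did those of 14.1% of tested genes. The log2 change of 0.15 ± 0.09 (SE; 95% interval −0.06 to 0.36) did not pass (limma adjusted p = 0.404). IL1B passed in none of 21 alternatives, where its adjusted p was 0.104 to 0.705.

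IL1RN (chromosome 2, 113107214 to 113134016), 270310 bases from IL1B, had 1 read in control replicate 2 and none in the other 5 libraries. At these depths 3 reads on IL1RN would have been 0.0505 to 0.0629 FPKM, so no fold is given, and the planned ratio of IL1RN to IL1B would only repeat IL1B. IL18 (chromosome 11, 112143251 to 112164117), whose product induces interferon-γ in lymphocytes, was at 10.9, 11.2 and 11.3 FPKM in control and at 8.53, 10.3 and 9.17 FPKM in CPL. All 3 CPL libraries lay below the controls, as did those of 14.9% of tested genes. The log2 change of −0.24 ± 0.10 (SE; 95% interval −0.48 to −0.0013) did not pass (limma adjusted p = 0.253). It was −0.13 with the GC trend removed (adjusted p = 0.338), IL18 having a GC content of 39.2%, and the interval then included 0.

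VEGFA (chromosome 6, 43770184 to 43786487) encodes the main growth factor of blood vessels and is a textbook target of the hypoxia factor HIF-1. It was at 5.0004, 4.59 and 4.56 FPKM in control and at 7.28, 5.88 and 5.81 FPKM in CPL. All 3 CPL libraries lay above all controls, as did those of 14.1% of tested genes, and CPL replicate 1 was the highest. The log2 change of 0.35 ± 0.12 (SE; 95% interval 0.08 to 0.62) did not pass as deposited (limma adjusted p = 0.168). Its change was 0.28 with the GC trend taken out (adjusted p = 0.0303), but with that trend removed the call was lost without any 1 library, with adjusted p from 0.0613 to 0.0925. Of the known regulators, the tested genes of the hypoxia pathway, HIF1A, ARNT, VHL, EGLN1 and EGLN2, had limma adjusted p of 0.403 or more as deposited. With the GC trend removed their adjusted p was 0.0581 or more. EPAS1 and EGLN3 of the same pathway were under the filter. These mRNA levels do not measure the activity of HIF-1, which was not tested.

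GDF15 (chromosome 19, 18374731 to 18389176), a stress-induced cytokine of the TGF-β superfamily that curbs appetite through a receptor in the brainstem, was at 0.196, 0.578 and 0.566 FPKM in control and at 3.44, 1.16 and 1.04 FPKM in CPL. With all controls under 1 FPKM, GDF15 could pass the filter only if the groups did not overlap. CPL replicate 1, with 111 reads, was set apart from CPL replicates 2 and 3, with 39 and 35 reads. The controls had 6 to 22 reads. The log2 change of 0.91 ± 0.31 (SE; 95% interval 0.18 to 1.64) did not pass (limma adjusted p = 0.180). Without CPL replicate 1 it was 0.55 (adjusted p = 0.202), and with the GC trend taken out 0.69 (adjusted p = 0.0737). GDF15 had the highest GC content of the 10 members, 62.9%. With the trend taken out, CPL replicate 1 was still the highest, at 0.99 above the control mean on the log2 scale. CPL replicates 2 and 3 were at 0.48 and 0.58. DDIT3, which encodes the stress factor CHOP, averaged 4.48 ± 0.54 FPKM in the controls and 7.50 ± 1.23 in the CPL libraries without passing (adjusted p = 0.0791, or 0.0196 with the GC trend removed), and ATF4, which encodes a known activator of GDF15, had an adjusted p of 0.421.

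The bases before the transcription start were read from RefSeq (GRCh38.p14), which had entries for 4 of the 10 members. They are shown for the tested members with an entry, IL1B, as the member with the highest FPKM, and GDF15, as the member whose CPL libraries differed most among themselves. LIF and CSF1 had none. Each line gives the 250 bases before the RefSeq start, 5′ to 3′ on the gene's strand, with motif matches in capitals. The GDF15 stretch lies within the gene bounds given above and the IL1B stretch overlaps them, so these starts are not the outermost annotated ones.
IL1B (chr2:112836780-112837029, minus strand): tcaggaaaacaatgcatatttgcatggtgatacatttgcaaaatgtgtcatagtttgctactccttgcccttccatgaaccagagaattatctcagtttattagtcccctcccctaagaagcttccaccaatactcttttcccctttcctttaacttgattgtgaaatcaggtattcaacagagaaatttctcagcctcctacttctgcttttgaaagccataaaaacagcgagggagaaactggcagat
GDF15 (chr19:18385908-18386157, plus strand): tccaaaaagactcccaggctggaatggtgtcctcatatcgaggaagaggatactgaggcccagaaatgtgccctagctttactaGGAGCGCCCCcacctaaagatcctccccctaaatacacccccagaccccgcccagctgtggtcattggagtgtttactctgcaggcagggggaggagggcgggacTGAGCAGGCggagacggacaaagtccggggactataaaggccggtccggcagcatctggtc
Both strands were searched for 5 motifs: TGANTCA (AP-1), TGANNNNGC (the core of the antioxidant response element), the NF-κB motif (3 G, any 5 bases, 2 C), ACGTG (the core of the hypoxia response element) and TGANGCAA (the amino acid response element). The GDF15 stretch held 1 match of TGANNNNGC, beginning 61 bases before the start, and 1 of the NF-κB motif on the other strand, beginning 166 bases before it. These motifs were found in 35.2% and 54.4% of all 35116 stretches of the same length. The IL1B stretch held none of the 5 in this window, and AP-1, hypoxia and amino acid motifs were found in 6.6%, 18.5% and 2.8% of all stretches. A match is a description of the letters and not of binding.

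IL15 (chromosome 4, 141636599 to 141733987), which encodes a growth factor of natural killer and memory T cells, was at 0.165, 0.0977 and 0.255 FPKM in control and at 0.197, 0.157 and 0.301 FPKM in CPL, from 14 to 38 reads. The groups overlapped (exact permutation p = 0.5, two-sided). TGFA (chromosome 2, 70447280 to 70554193), which encodes an activating ligand of the epidermal growth factor receptor, had 2, 0 and 1 reads in control and 0, 1 and 0 in CPL. A difference between groups was not detectable for TGFA at this depth.

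Ordered by mean FPKM in control, the levels ran from IL1B (50.6 ± 1.9) through CSF1 (17.4 ± 1.4), IL18 (11.2 ± 0.2) and VEGFA (4.72 ± 0.24) to LIF, OSM and GDF15 (0.447 ± 0.217), then IL15 (0.173 ± 0.079), TGFA and IL1RN (SD, n = 3). LIF, OSM and GDF15 did not differ beyond their spread, nor did TGFA and IL1RN. The order depends on the length used. VEGFA, with 14431 bases of merged exon against 2628 for IL18, had more control reads (1057 to 1209 against 421 to 538) but a lower FPKM. In CPL the order of the first 4 was the same, and LIF (4.01 ± 0.74 FPKM) lay between VEGFA (6.32 ± 0.83) and GDF15 (1.88 ± 1.35). The summed level of the 10 genes was 81.8 to 88.6 FPKM in control and 105.5 to 118.2 in CPL. CSF1 had the largest part in that difference, averaging 17.4 FPKM in control and 35.0 in CPL. IL18, TGFA and IL1RN had lower means in CPL.

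**Figure D3:**
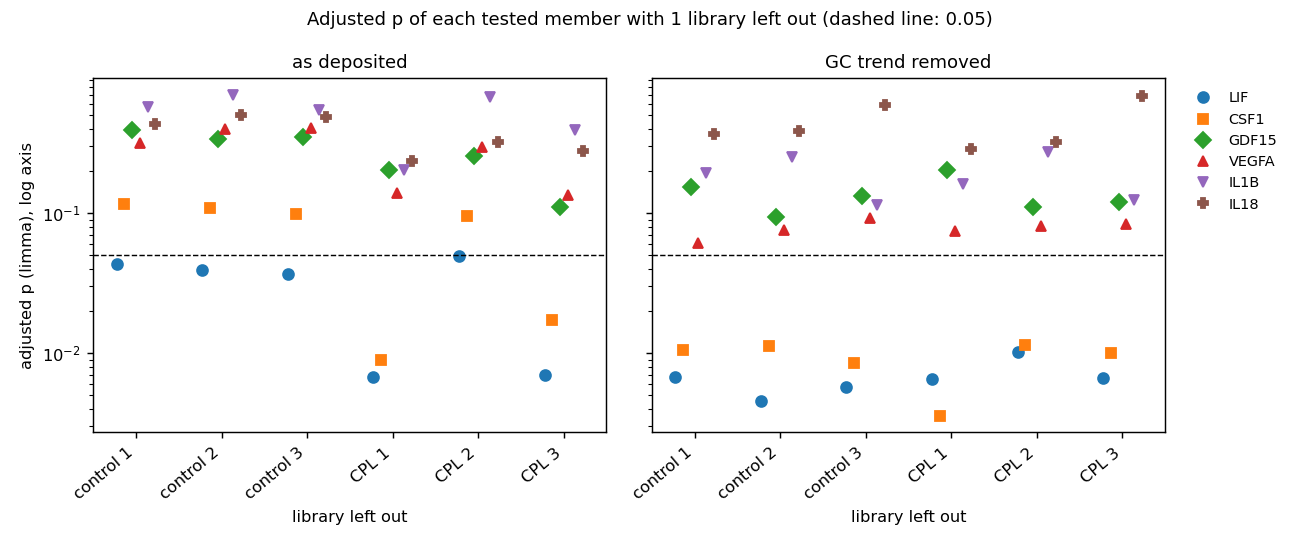
Adjusted p from limma (log axis) of the 6 tested members when 1 library was left out, named on the horizontal axis, as deposited (left) and with the GC trend removed (right), with a dashed line at 0.05. LIF lies under the line in all 12 fits, at 0.0496 without CPL replicate 2, and CSF1 lies above it in 4 of the 6 fits on the left and none on the right.

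By a rule of likeness, the gene whose profile over the 6 libraries was closest to each tested member was found from log2(FPKM + 1) centred on the control mean. For LIF it was SQSTM1, with a root mean square difference of 0.132 on the log2 scale, and for CSF1 it was CSRNP1, with 0.0831. SQSTM1 averaged 9.29 ± 0.05 FPKM in the controls and 35.7 ± 7.2 in the CPL libraries, and CSRNP1 averaged 5.36 ± 0.43 and 10.9 ± 2.4 FPKM. The closest genes to IL1B, IL18, VEGFA and GDF15 were SLC25A20 (0.0155), TMEM230 (0.0157), ZNF496 (0.0230) and WNT11 (0.0888). This scale understates the change of low genes: that of LIF was 1.71 on it and 2.95 by voom. The likeness of LIF to SQSTM1, and of GDF15 to WNT11, therefore holds on this scale and not for the fold.

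Of 18 receptor genes of the 10 ligands, 16 were in the table and 6 were tested, and none passed in limma (1 higher at an unadjusted p under 0.05, and 1 higher by voom). Both IL6ST and FLT1 passed as higher with the GC trend removed. The median log2 change of the 6 tested receptor genes was 0.09, against −0.01 for all tested genes. Beside the counts of this list and those below, 9.54% of all tested genes were higher and 10% lower at an unadjusted p under 0.05. At an adjusted p under 0.05 the shares were 1.09% and 0.665% as deposited, 6.97% and 6.29% with the GC trend removed, and 2.45% and 1.47% by voom. FLT1 in this list and RHBDF1 in the next entered the test through their CPL libraries alone, and CASP1 and HGF through their controls alone. Their direction was fixed by the filter, so the counts of the lists are not read against these shares. LIFR, which encodes the subunit that binds LIF, had 0 to 3 reads per library, and CSF1R, the receptor of CSF1, had 8 to 30. IL6ST, which encodes gp130, averaged 4.80 ± 0.51 FPKM in the controls and 6.19 ± 1.38 in the CPL libraries (adjusted p = 0.353, or 0.0139 with the GC trend removed). IL1R1, the signalling receptor of interleukin-1, had 18 to 32 reads in control and 9 to 12 in CPL and was under the filter, and IL1RAP, its partner subunit, was at 1.39 ± 0.14 and 1.33 ± 0.18 FPKM (adjusted p = 0.906).

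Of 16 genes for maturation and release of these cytokines, 12 were tested, 1 fell, none rose and 11 did not pass (median log2 change 0.15; 5 higher and 1 lower at an unadjusted p under 0.05, and 2 higher and 1 lower by voom). With the GC trend removed 4 were higher, ADAM17, FURIN, NLRP1 and AIM2, and 2 lower, CASP1 and GSDMD. CASP1 was at 2.86, 2.18 and 2.07 FPKM in control and at 0.646, 0.769 and 0.859 FPKM in CPL, from 130 to 155 and 37 to 51 reads. Every CPL library was below 1 FPKM, so CASP1 entered the test through its controls alone. The filter thereby fixed that every CPL library was below every control. Its log2 change was −0.93 ± 0.15 (SE; limma adjusted p = 0.0316), and −0.84 with the GC trend removed (adjusted p = 0.00889). CASP1 no longer passed without control replicate 1 (adjusted p = 0.147), 2 (0.134) or 3 (0.118) or CPL replicate 2 (0.117). Without the filter on low values, none of the genes of the 5 pathway lists passed. ADAM17, the protease that sheds TGF-α and the CSF1 precursor, averaged 9.08 ± 0.33 FPKM in the controls and 13.3 ± 2.2 in the CPL libraries (adjusted p = 0.107, or 0.00189 with the GC trend removed).

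**Figure D4:**
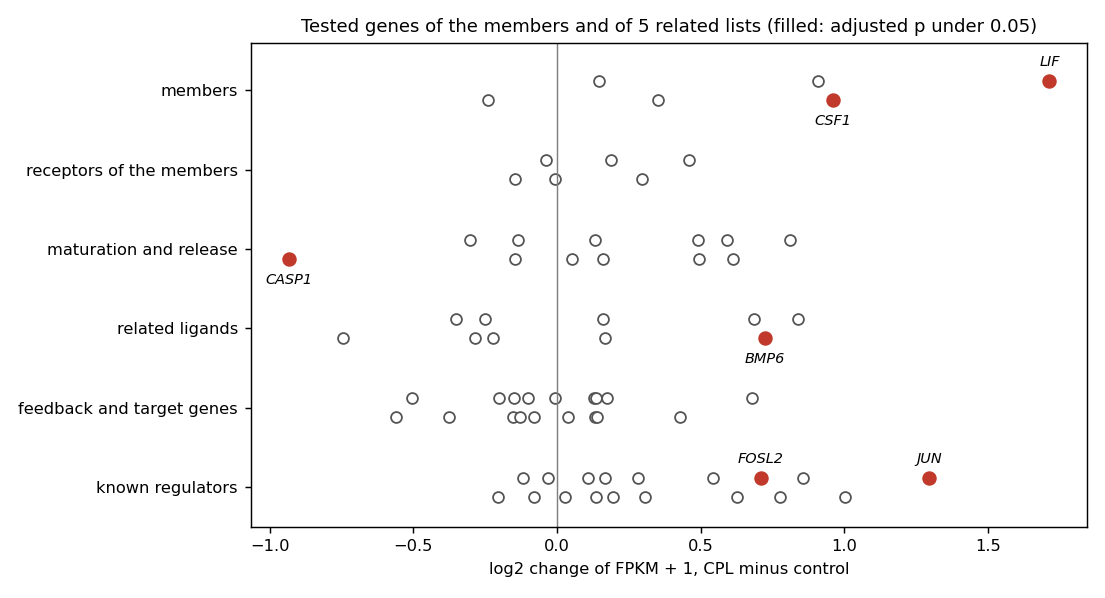
Log2 change of FPKM + 1, CPL minus control, of each tested gene (circle) among the members and in 5 related lists, filled and named where the adjusted p was under 0.05. CASP1 (−0.93) is the one filled circle to the left of 0, and LIF (1.71) lies farthest to the right.

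Of 52 related ligands, 39 were in the table and 10 were tested, 1 rose, none fell and 9 did not pass (median log2 change −0.03; 3 higher and 2 lower at an unadjusted p under 0.05, and 2 higher and 1 lower by voom). BMP6, EGF and TGFB1 were higher and HGF lower with the GC trend removed. The riser was BMP6, a bone morphogenetic protein known for inducing the iron hormone hepcidin, at 23.7, 22.5 and 20.2 FPKM in control and 41.5, 34.7 and 35.5 FPKM in CPL. All 3 CPL libraries lay above all controls, as did those of 14.1% of tested genes. The log2 change was 0.72 ± 0.11 (SE; limma adjusted p = 0.0300). BMP6 lost its call without control replicate 1 (adjusted p = 0.131), 2 (0.134) or 3 (0.150) or CPL replicate 2 (0.107), and had an adjusted p of 0.00303 with the GC trend removed. IL6, the best known cytokine of the secretory phenotype, had 0 to 3 reads per library, and IL1A, the sister gene of IL1B, had 3 to 10.

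Of 20 feedback and target genes of these cytokines, 18 were tested and none passed in limma (median log2 change −0.04; 2 higher and 3 lower at an unadjusted p under 0.05, and none by voom). SOCS1 was higher with the GC trend removed, and 5 were lower, NFKBIA, SOCS3, BCL3, MYB and CISH. SOCS3, the feedback inhibitor of gp130 signalling, averaged 16.5 ± 0.6 FPKM in the controls and 12.6 ± 2.6 in the CPL libraries (adjusted p = 0.221), and with the GC trend removed it was lower, with a log2 change of −0.55 (adjusted p = 0.0139). STAT3 was at 42.8 ± 1.4 and 44.0 ± 0.3 FPKM (95% interval of the log2 change −0.16 to 0.24).

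Of 20 known regulators, 18 were tested, 2 rose, none fell and 16 did not pass (median log2 change 0.24; 7 higher and none lower at an unadjusted p under 0.05, and 2 higher by voom). With the GC trend removed 7 were higher, JUN, FOSL2, FOSL1, JUND, SPI1, CEBPB and DDIT3, and NFKB1 was lower. Both risers in the deposited values are AP-1 genes. JUN was at 0.752, 1.13 and 0.750 FPKM in control and 5.18, 3.30 and 2.62 FPKM in CPL libraries (limma adjusted p = 0.0346), with 1 control above 1 FPKM, and FOSL2 at 5.50, 5.12 and 4.56 and at 10.4, 7.86 and 8.59 FPKM (adjusted p = 0.0462). CPL replicate 1 was the highest for both, and the calls held without it (adjusted p = 0.0191 and 0.0236). JUN and FOSL2 lost their calls without any 1 control or CPL replicate 2, and FOSL2 also without CPL replicate 3, with adjusted p of up to 0.156 for JUN and 0.193 for FOSL2.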

How the data were processed

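Per the labels' protocols, RNA was extracted with TRIzol, mRNA was bound to oligo(dT) beads, and a DNBSEQ instrument gave single-end reads. Titles of the samples gave groups and replicate numbers, and table columns were matched by the description of each sample. The authors deposited 1 table of FPKM values. No header or label names the unit, which was taken from the values: multiplied by the merged exon length in GENCODE 29, 98.7% to 99.0% of the values worth up to 20 reads were whole multiples of 1 read, within 0.1 of a read. The library totals came from that step. Per the submitters' processing notes, the build was GRCh38 and the tools were DESeq2 1.4.5, RSEM 1.2.12, HISAT2 2.0.4 and Bowtie2 2.2.5, with no role given for each. Because FPKM is relative to the library total, very abundant genes can depress the rest. Replicates within a group differed beyond counting noise (chi-square from 7.84 to 56.5 per degree of freedom), so each library was counted as 1 sample.

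Genes reaching 1 FPKM in 3 or more libraries were fitted in limma 3.58.1 (R 4.3.3) on log2(FPKM + 1) with group as the only term, trend and robust moderation, two-sided, at an adjusted p under 0.05. On this scale the change of low genes is understated. Members under the filter had an exact permutation test over samples. GC trends were removed from each library by loess (span 0.5) on the GC content of the longest transcript. Alternatives covered pseudocounts of 0.1 and 0.01, no filter and a filter at 5 FPKM, quantile normalization, a replicate block, voom, and leaving out each library. The functions were tested on simulated data. The members and lists were chosen with earlier results of these data known. Named were all members, the listed genes past the threshold (up to 4 per list, the higher group averaging 1 FPKM or more) and the closest gene to each member; other listed genes are named by their role in the pathway, chosen after their values were seen. Promoters were planned for members past the threshold and are shown for tested members with an entry. Python 3.11.15 with pandas 2.3.3, numpy 2.4.6 and matplotlib 3.10.9 read the tables and drew the figures.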

Additional observations from a re-analysis of the deposited data

How the results depend on the processing

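LIF passed in all 20 alternatives that gave it a value (the filter at 5 FPKM removed it), with a log2 change of 1.52 to 2.95, and CSF1 in 15 of 21, with 0.75 to 1.07 (adjusted p = 0.0569 with the replicate number as a block). No member changed direction in any alternative. Over all genes, 143 were higher and 87 lower. These counts were 912 and 824 with the GC trend removed, 550 and 521 with the replicate block added to that, 612 and 527 with the trend and CPL replicate 1 removed, 321 and 192 by voom, 48 and 15 with the replicate block alone, and 21 and 4 without a filter. Leaving out 1 library gave 17 to 364 higher and 1 to 339 lower, with the most without CPL replicate 1 and the fewest without control replicate 1, and with the GC trend removed as well the counts were 515 and 407, 519 and 426, and 460 and 314 without control replicates 1, 2 and 3, and 395 and 311, and 501 and 486, without CPL replicates 2 and 3 (5 fits chosen after seeing the data). Members called higher, 2 as deposited, numbered 1 with the replicate block, without a filter and with the filter at 5 FPKM, and 1 to 2 when 1 library was left out. Of 64 tested genes of the 5 pathway lists, 3 were higher and 1 lower. These were 17 and 9 with the GC trend removed, 15 and 5 with the block added, 14 and 6 without CPL replicate 1 as well, 7 and 2 by voom, 0 and 0 with the replicate block alone and without a filter, and 2 and 0 with the filter at 5 FPKM. They ranged from 0 to 9 higher and 0 to 3 lower when 1 library was left out, and from 13 to 14 higher and 4 to 6 lower with the trend removed too. The cause of these moves was not tested, except that fewer genes pass the filter at 5 FPKM. Deviations of same-numbered libraries had correlations of 0.0836, 0.0885 and −0.168 over tested genes, and those of differently numbered libraries −0.229 to 0.222. With 3 libraries per group these values cannot decide whether the numbers pair the samples. Same-numbered control and CPL columns share a prefix in their names, and the labels do not say what it stands for. The calls lost with the replicate block are therefore a limit of the results as deposited. The planned ratio of IL1RN to IL1B was not run, IL1RN being at 0 in 5 of 6 libraries. Depth limits IL1RN, TGFA, IL15 and OSM, with at most 38 reads in any library.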

Other observations

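These genes of the same pathways were chosen after their values were seen. TNF, which encodes the inflammatory cytokine tumour necrosis factor, had 2, 4 and 2 reads in control replicates 1, 2 and 3 and 21, 27 and 9 reads in CPL, or 0.0943 ± 0.032 and 0.713 ± 0.341 FPKM (SD, n = 3). The groups did not overlap, but TNF stayed under the filter and was not tested in the fit above. Among tested genes, 14.1% had all CPL libraries above all controls. EGF, the epidermal growth factor gene, was at 1.25, 1.73 and 1.12 FPKM in control and at 2.69, 2.98 and 4.06 FPKM in CPL (limma adjusted p = 0.0555, or 0.00773 with the GC trend removed). HGF, which encodes the hepatocyte growth factor, was at 1.90, 2.40 and 1.54 FPKM in control and at 0.586, 0.800 and 0.869 FPKM in CPL (adjusted p = 0.0707, or 0.0271 with the GC trend removed), and entered the test through its controls alone. FLT1, which encodes a receptor of VEGF-A, averaged 0.628 ± 0.040 FPKM in the controls and 1.24 ± 0.07 in the CPL libraries (adjusted p = 0.153, or 0.0480 with the GC trend removed), and entered the test through its CPL libraries alone. TGFB1, which encodes transforming growth factor β, the factor most tied to marrow fibrosis, was at 97.6, 90.2 and 105.9 FPKM in control and at 230.2, 142.0 and 120.1 FPKM in CPL. CPL replicate 1 was the highest, and the adjusted p was 0.166, or 0.0133 with the GC trend removed.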
